A study of Mus musculus with 32 samples.

Results

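The 10 genes described here encode the main non-collagen proteins of the basement membrane, the thin sheet of matrix that wraps each muscle fibre, capillary and nerve in skeletal muscle. They are 3 laminin α chains (Lama2, Lama4, Lama5), 2 laminin β chains (Lamb1, Lamb2), the laminin γ1 chain (Lamc1), both nidogens (Nid1, Nid2) and the heparan sulfate proteoglycans perlecan (Hspg2) and agrin (Agrn). They were taken by gene name, with earlier results of these data known, and are 10 of the 53801 gene IDs in the tables. Transcript levels are given as TPM, the deposited abundance, which is scaled for transcript length and for the total of each library.

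A laminin is a cross-shaped trimer of 1 α, 1 β and 1 γ chain, named by its chain numbers, so that laminin-211 is α2β1γ1. Laminins bind cell surface receptors through the end of the α chain and polymerise through their short arms into a sheet; nidogens and perlecan tie that sheet to the collagen IV network. In muscle, α2 is the chain of the mature fibre surface and its loss causes a congenital muscular dystrophy, α4 and α5 are found in vessel walls and at the neuromuscular junction, and β2 is enriched at the synapse. Agrin released by the nerve acts through the receptors Lrp4 and MuSK to gather acetylcholine receptors under the nerve ending.

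Mice of 2 genotypes were compared, wild type (WT) and Col6a2-/-, which carry 2 copies of the allele Col6a2 tm1(KOMP)Vlcg; the gene encodes the α2 chain of collagen VI, a microfibril that lies just outside the basement membrane. The allele had been crossed for 5 generations onto C57BL/6J, and both genotypes came from heterozygous parents. Quadriceps muscle was taken at 5 or 25 weeks of age from females and males, and each of the 8 groups held 4 mice with 1 library each. The 2 ages were different mice, and the series concerns collagen VI and the availability of TGFβ in muscle.

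Col6a2 was 6.6 to 51.2 TPM in the 16 WT libraries and at most 0.171 TPM in the 16 knockout libraries. The relative depth of the libraries, read from the ratio of deposited coverage to FPKM, ran from 6.78 to 13.69, and 10399 to 12877 genes reached 1 TPM. Mitochondrial genes took 31.9% to 46.9% of the TPM of a library and Rn7s genes another 20.8% to 30.5%. No 2 libraries held identical values, and the highest correlation between libraries was 0.984. Myofibre markers summed to 25700 to 49100 TPM and none of the 9 was at 0 in all libraries.

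The stretches upstream of 3 of these genes were chosen with the values known: Lamb1 and Nid1 were among the members that changed most between ages, whereas Lamb2, the other β chain, changed less. They are RefSeq promoter windows (GRCm38.p6, 250 bases before to 50 after the start site), printed from their first base up to the first annotated exon, all on the plus strand. Lamb1 lies at chr12:31265043-31265233, Nid1 at chr13:13437352-13437550 and Lamb2 at chr9:108479612-108479735. Capitals mark CAGAC, the core letters bound by Smad proteins, and GGGCGG, the GC box, on either strand.
Lamb1: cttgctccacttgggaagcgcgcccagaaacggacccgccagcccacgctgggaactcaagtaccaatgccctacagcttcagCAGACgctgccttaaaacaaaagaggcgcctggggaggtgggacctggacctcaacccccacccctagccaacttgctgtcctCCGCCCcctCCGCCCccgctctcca
Nid1: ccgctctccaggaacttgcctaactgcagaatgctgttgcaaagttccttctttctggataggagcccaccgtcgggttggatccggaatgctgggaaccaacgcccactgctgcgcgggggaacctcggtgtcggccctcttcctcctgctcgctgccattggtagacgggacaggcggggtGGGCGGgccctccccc
Lamb2: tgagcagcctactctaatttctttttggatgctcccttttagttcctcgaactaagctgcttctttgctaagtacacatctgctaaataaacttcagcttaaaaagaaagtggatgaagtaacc

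In the whole 300-base windows, Lamb1 held 1 CAGAC and 2 GGGCGG, Nid1 held 0 and 1, and Lamb2 held 2 and 0. The Lamb2 window was 44.0% G and C, against 63.7% for Lamb1, 64.7% for Nid1 and a median of 52.7% over 32851 windows of that length. Over those windows, CAGAC (or GTCTG) occurred in 49.6%, GGGCGG (or CCGCCC) in 35.7%, and TGANTCA, the AP-1 site read on both strands, in 7.81%. Overlapping matches were each counted. Of the 7 members with a window in the table, the upstream Agrn window held 12 GGGCGG, Hspg2 5, Lama5 4 and Lama2 1, and no member window held TGANTCA. Lama4, Lamc1 and Nid2 had no entry.

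Over the 32 libraries Nid1 had the highest mean of the 10 genes, 29.5 TPM (range 12.8 to 68.4). Lamb2 followed at 23.5 TPM and Lamc1 at 22.7, then Lama2 at 13.8, Hspg2 at 12.8, Lama4 at 12.6 and Lamb1 at 10.3. Nid2 averaged 4.87 TPM. Lama5 and Agrn were the lowest, at 2.17 and 1.96 TPM. The order at the top differed by age: Nid1 had the higher mean in all 4 groups at 5 weeks, whereas at 25 weeks Lamb2 averaged 19.6 TPM in WT and 23.2 TPM in Col6a2-/-, against 15.7 and 20.1 TPM of Nid1. All 10 passed the filter of at least 1 TPM in at least 4 libraries, as did 12817 genes in all. Within each genotype and sex, the plot of all 32 libraries shows a higher mean at 5 than at 25 weeks for the 8 members other than Lamb2 and Lama5. On GRCm38, as the tables list them, Nid1 spans chr13:13437551-13512269, Lamb1 chr12:31265234-31329644, Lamb2 chr9:108479736-108490530, Lamc1 chr1:153218922-153332786 and Agrn chr4:156165290-156197488.

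**Figure D1:**
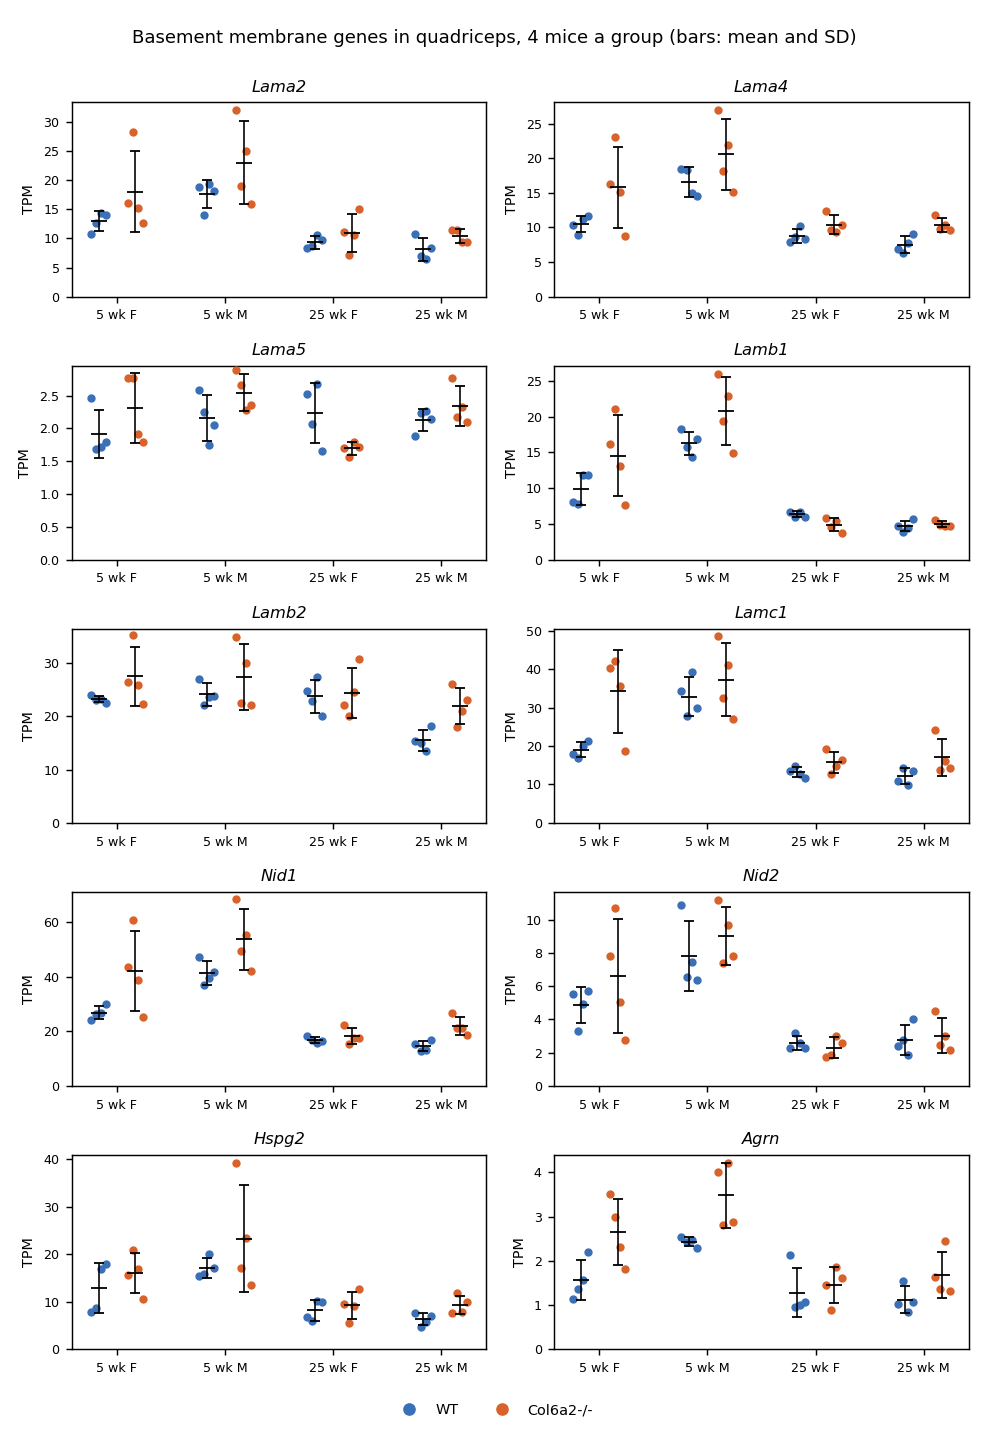
TPM of each of the 10 genes in every library (vertical axis, from 0), by age and sex, with WT in blue and Col6a2-/- in orange; each point is 1 mouse and the bars are the mean and SD of 4. Lamb1, Nid1 and Nid2 drop from 5 to 25 weeks in both genotypes. At 5 weeks the Col6a2-/- points of Nid1, Lamc1, Lamb1 and Lama4 spread more widely than the WT points in both sexes.

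At 5 weeks, 5 of the 10 genes were higher in Col6a2-/- than in WT muscle (limma, two-sided, Benjamini-Hochberg adjusted p under 0.05 over all 12817 genes) and none was lower. They were Nid1, Lamc1, Agrn, Lamb1 and Lama4, with changes of 0.37 to 0.46 on the log2(TPM + 1) scale, or 1.30-fold to 1.38-fold. Of all genes tested, 23.2% were called higher in this comparison, so a raised gene was common in these libraries. The median change was 0.37 for the members and 0.145 for all genes. No member had its 8 Col6a2-/- libraries all above the 8 WT libraries, which 1.18% of all genes did. In bulk muscle, more cells of a type and more RNA per cell cannot be told apart.

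Nid1, the nidogen that joins the laminin γ1 arm to collagen IV, was 24.2, 26.5, 26.7 and 30.0 TPM in WT females at 5 weeks, and 25.4, 38.9, 43.5 and 61.0 TPM in Col6a2-/- females. In males the values were 36.9, 39.6, 41.7 and 47.2 TPM in WT and 42.1, 49.4, 55.2 and 68.4 TPM in Col6a2-/-. In each sex 3 of the 4 knockout libraries lay above every WT library, and the lowest one lay within the WT range. The change was 0.46 ± 0.12 (SE), 1.38-fold, with a limma adjusted p of 0.00669. It was the one member called under each of the 9 alternative analyses and without each of the 16 libraries of that age in turn. Nid2, the second nidogen, averaged 6.35 ± 2.23 TPM in WT libraries and 7.81 ± 2.84 TPM in knockout libraries (SD, n = 8), and did not pass the test (limma adjusted p = 0.324).

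Agrn was 1.14, 1.36, 1.57 and 2.20 TPM in WT females at 5 weeks and 1.81, 2.31, 2.98 and 3.51 TPM in Col6a2-/- females. WT males had 2.29, 2.42, 2.48 and 2.53 TPM, and Col6a2-/- males 2.82, 2.87, 4.01 and 4.22 TPM. In females 1 knockout library fell within the WT range. The male groups did not overlap, but the males alone were not called (limma adjusted p = 0.218), and such separations were not counted over all genes. The Agrn change over both sexes was 0.44 ± 0.12 (SE), 1.35-fold, with a limma adjusted p of 0.00876. All 8 knockout libraries exceeded the WT mean of their sex, a count not taken over all genes. Quantile normalization ended the call (0.25, adjusted p = 0.0939). Perlecan, the larger proteoglycan, averaged 15.0 ± 4.37 TPM in WT libraries and 19.6 ± 8.85 TPM in knockout libraries (SD, n = 8), a change of 0.33 ± 0.19 that did not pass (limma adjusted p = 0.207). Its widest value, 39.2 TPM, came from Col6a2-/- male replicate 1, which also had the highest Nid1, Lama2, Lama4, Lamb1 and Lamc1 of all 32 libraries.

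Lamc1 encodes γ1, the chain shared by nearly all laminins of muscle. Its 5-week values were 16.8, 18.0, 20.1 and 21.3 TPM in WT females against 18.7, 35.7, 40.3 and 42.1 TPM in Col6a2-/- females. Males had 27.7, 30.0, 34.3 and 39.4 TPM in WT and 27.0, 32.4, 41.1 and 48.6 TPM in Col6a2-/-. The female groups were set apart save for 1 knockout library, while the male groups overlapped widely. Over both sexes the change was 0.46 ± 0.14 (SE), with a limma adjusted p of 0.0216. Under median-of-ratios scaling it was 0.28 with an adjusted p of 0.0597, and the call was also lost without Col6a2-/- female replicate 1 or 2 or male replicate 1 (adjusted p up to 0.0644).

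Among the β chains, Lamb1 was 7.76, 8.05, 11.8 and 11.9 TPM in WT females at 5 weeks and 7.66, 13.1, 16.2 and 21.1 TPM in Col6a2-/- females. WT males held 14.4, 15.8, 16.8 and 18.2 TPM, and Col6a2-/- males 14.9, 19.4, 22.9 and 26.0 TPM. The change was 0.39 ± 0.14 (SE), 1.31-fold (limma adjusted p = 0.0387). Again the knockout values spread upward from the WT range, without leaving it altogether. Lamb2, the synaptic β chain, averaged 23.6 ± 1.48 TPM in WT libraries and 27.4 ± 5.43 TPM in knockout libraries (SD, n = 8) and did not pass (limma adjusted p = 0.192).

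Of the α chains, Lama4 was 8.87, 10.3, 11.2 and 11.6 TPM in WT females at 5 weeks and 8.73, 15.1, 16.2 and 23.1 TPM in Col6a2-/- females. In males it was 14.5, 15.0, 18.3 and 18.5 TPM in WT and 15.1, 18.1, 21.9 and 27.0 TPM in Col6a2-/-. The change was 0.37 ± 0.13 (SE), 1.30-fold (limma adjusted p = 0.0330). Lama2, the chain of the fibre surface, averaged 15.3 ± 3.13 TPM in WT libraries and 20.6 ± 7.06 TPM in knockout libraries (SD, n = 8). That is a change of the same size, 0.37 ± 0.15, but with a limma adjusted p of 0.0679. Lama5 was 2.04 ± 0.359 and 2.43 ± 0.412 TPM (SD, n = 8), with an adjusted p of 0.113; with library quality weights or on coverage in place of TPM it was called higher (adjusted p down to 0.0369).

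Scaling decided several of these calls. Genes called higher made up 91.6% of all calls at 5 weeks on TPM, 54.6% with median-of-ratios size factors and 47.0% with quantile normalization, since the median change of all genes moved from 0.145 to 0.008 and -0.023. Under each of those scalings 2 members were called, Nid1 with Agrn under the first (0.285 and 0.304) and Nid1 with Lamc1 under the second (0.36 and 0.34). Lama4 and Lamb1 were called under neither, nor when no filter on low genes was used, and were called in 8 and 7 of the 16 fits that left out 1 library of that age. Relative to the median of all genes, the 5 changes were 0.23 to 0.32 on the log2 scale.

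Col6a2-/- female replicate 4 at 5 weeks stood apart from its group: its values for all 10 genes were the lowest of the 4. Without it, 7 members were called at 5 weeks, and the genes called in either direction rose from 3253 to 4749. Without female replicate 2 of that group, female replicate 1 or male replicate 1, the count of members was 2. Genes called in either direction fell to 2207 without male replicate 1. In replicate 4 the summed fibroblast markers were 915 TPM and the macrophage markers 38.3 TPM, against 1790 to 2850 and 82.5 to 143 TPM in the other 3 libraries of its group.

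**Figure D2:**
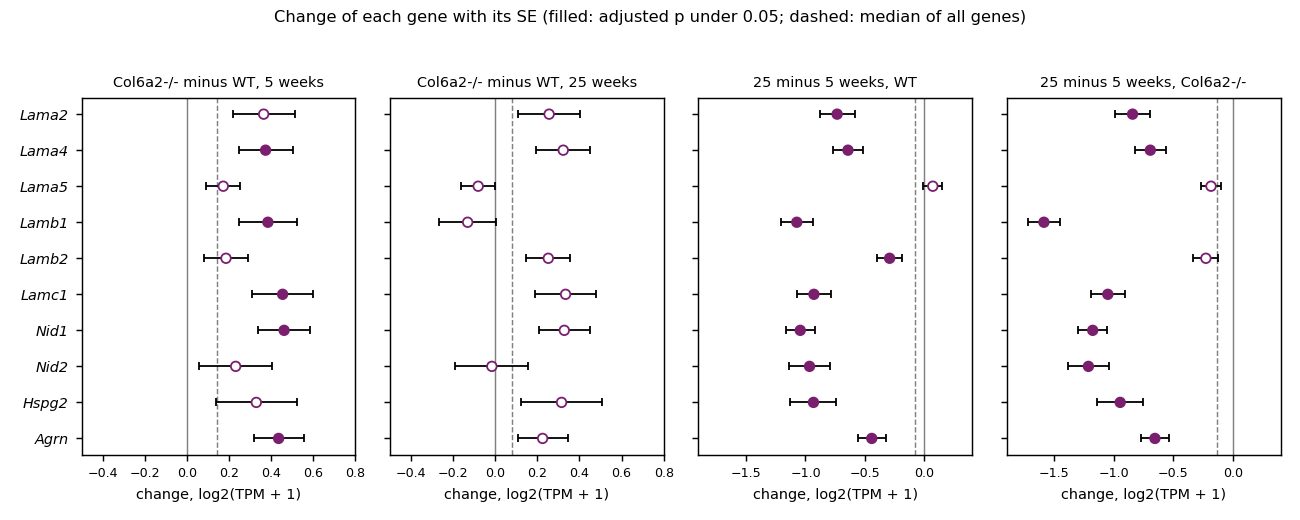
Change of each of the 10 genes on the log2(TPM + 1) scale (horizontal axis) with its SE, for genotype at each age (left 2 panels) and for age in each genotype (right 2 panels); filled points passed an adjusted p of 0.05 and the dashed line is the median of all 12817 genes. At 5 weeks all 10 points lie right of the dashed line and 5 are filled; at 25 weeks none is filled; between ages Lamb1, Nid1 and Nid2 lie farthest to the left.

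At 25 weeks no member was called between genotypes, where 4.7% of all genes were called by limma. At an unadjusted p under 0.05 there were 4 members and 2469 genes, and the lowest adjusted p among members were 0.121 (Nid1) and 0.154 (Lama4). With library quality weights, 3 members were called higher (Nid1, Lama4 and Lamb2). Nid1 averaged 15.7 ± 1.88 TPM in WT libraries and 20.1 ± 3.60 TPM in knockout libraries (SD, n = 8), and Lama4 was 8.14 ± 1.23 and 10.4 ± 1.12 TPM. All 8 knockout libraries exceeded the WT mean of their sex for Lama4, and 7 of 8 did for Nid1, Lama2, Lamc1, Hspg2 and Agrn. Lamb2 had 6, Nid2 4, and Lama5 and Lamb1 3 each. The median change of all genes was 0.082, and such counts were not taken over all genes. Unlike Lama4 and Nid1, Lamb1 had the lower mean in Col6a2-/-, at 5.52 ± 1.04 TPM in WT and 4.92 ± 0.669 in Col6a2-/-, a change of -0.13 ± 0.14. That came from females, with means of 6.36 TPM in WT and 4.91 TPM in Col6a2-/-, whereas males had 4.69 and 4.94 TPM. Nid2 was 2.67 TPM in both genotypes.

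The genotype difference was compared between the ages with an interaction term, and 0 of the 10 members were called (limma, 0.492% of all genes called; 2 members and 898 genes had an unadjusted p under 0.05). Among the members, the largest interaction was that of Lamb1, -0.52 ± 0.19 (SE, adjusted p = 0.462). The 5-week calls are therefore not shown to be specific to that age. The difference between sexes in the genotype change was called by limma for 0 members and 0.0156% of all genes, and 0 members and 206 genes had an unadjusted p under 0.05.

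In 5-week females taken alone, Lamc1 (0.76 ± 0.20, limma adjusted p = 0.0165), Nid1 (0.57 ± 0.17, adjusted p = 0.0296) and Agrn (0.50 ± 0.17, adjusted p = 0.0477) were called higher, where 12.3% of all genes were. None of these 3 calls held without each library in turn. Lamc1 on deposited coverage in place of TPM gave 0.49 with an adjusted p of 0.0509. Fits of 5-week males, 25-week females and 25-week males called no member in limma, where 5.03%, 0.0078% and 3.03% of all genes were called. At an unadjusted p under 0.05 these fits held 2, 1 and 4 members, beside 2518, 621 and 2532 of the 12817 genes tested. In 25-week males the smallest limma adjusted p was that of Nid1, 0.0657, with 12.8, 13.2, 15.4 and 16.7 TPM in WT and 18.7, 21.2, 21.4 and 26.8 TPM in Col6a2-/-. These values did not overlap, but genes apart in this way were not counted over all genes.

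More members were called between ages than between genotypes. In WT mice 9 of the 10 genes fell between 5 and 25 weeks, where 15.3% of all genes were called lower, and in Col6a2-/- mice 8 fell, where 28.8% were. The median change of the members was -0.83 in WT and -0.90 in Col6a2-/-, against -0.076 and -0.136 for all genes. Those 8 (all but Lamb2 and Lama5) were called lower in both genotypes under each alternative analysis that tested them and in every fit that left out 1 library.

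On the log2(TPM + 1) scale, Lamb1 showed the deepest fall. Its 8 WT libraries ran from 7.76 to 18.2 TPM (median 13.1) at 5 weeks and from 3.93 to 6.72 TPM (median 5.81) at 25 weeks. In Col6a2-/- mice it ran from 7.66 to 26.0 TPM (median 17.8) and then from 3.75 to 5.86 TPM (median 4.79). In both genotypes every 25-week library lay below every 5-week library, which held for 2.3% of all genes in WT and 1.88% in Col6a2-/-. The changes were -1.07 ± 0.14 (SE, limma adjusted p = 1.47e-06), or 0.475-fold, and -1.59 ± 0.14 (adjusted p = 7.91e-10), or 0.333-fold. The ages were likewise apart in WT for Lamc1 (16.8 to 39.4 TPM, then 9.8 to 14.8) and Nid1 (24.2 to 47.2 TPM, then 12.8 to 18.4).

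The other falls graded downward by gene. Nid1 changed by -1.04 in WT and -1.18 in Col6a2-/-, Nid2 by -0.97 and -1.21, Lamc1 by -0.93 and -1.05, and Hspg2 by -0.93 and -0.95 (SE 0.12 to 0.19). Lama2 changed by -0.73 and -0.84, Lama4 by -0.64 and -0.69, and Agrn by -0.44 and -0.66 (SE 0.12 to 0.15). All of these passed in limma, with adjusted p of 0.00874 or less. Lamb2 went from 23.6 ± 1.48 to 19.6 ± 5.03 TPM in WT (SD, n = 8), with a limma adjusted p of 0.0476 that did not pass in 4 of the 9 alternatives and passed in 3 of the 16 fits without 1 WT library. In Col6a2-/- mice it went from 27.4 ± 5.43 to 23.2 ± 3.99 TPM (limma adjusted p = 0.0954). Lama5 ran from 1.57 to 2.89 TPM over all 32 libraries, with a change of 0.07 in WT (limma adjusted p = 0.598) and of -0.18 in Col6a2-/- (adjusted p = 0.0786). Its call depended on the setting in both genotypes. In WT it was called higher with age under quantile normalization (0.185, adjusted p = 0.0418). In Col6a2-/- it was called lower with library quality weights (-0.209, adjusted p = 0.0326), on coverage (-0.191, adjusted p = 0.0161) and without 5-week female replicate 3 or 4 or 25-week male replicate 1 (adjusted p of 0.0279 to 0.0497). Col6a2-/- females had means of 2.31 TPM at 5 weeks and 1.69 TPM at 25 weeks, and males 2.54 and 2.34 TPM.

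Since the β chains diverged, the ratio of Lamb1 to Lamb2 was taken within each library, where scaling of the library has no effect. It was 0.335, 0.338, 0.511 and 0.522 in 5-week WT females and 0.612, 0.674, 0.71 and 0.713 in 5-week WT males. At 25 weeks it was 0.244, 0.264, 0.272 and 0.3 in WT females and 0.263, 0.309, 0.312 and 0.328 in WT males. All 8 older WT libraries were therefore below all 8 younger ones, and the ratio fell to 0.538 of its 5-week value (two-sided exact permutation test within sex, p = 0.000408, the smallest that the 4900 splits allow, adjusted p = 0.00408 over 20 ratio tests).

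In Col6a2-/- mice the same ratio went from 0.343 to 0.859 at 5 weeks to 0.122 to 0.272 at 25 weeks, again with no overlap, or 0.346 of its 5-week value (exact permutation adjusted p = 0.00408). Between genotypes at 25 weeks it was lower in Col6a2-/-, at 0.747 times that of WT (exact permutation p = 0.00286, adjusted p = 0.0143). Values of 0.122, 0.221, 0.228 and 0.266 in Col6a2-/- females and 0.202, 0.213, 0.225 and 0.272 in males stood against 0.244 to 0.328 in WT, so that 6 of 8 knockout libraries lay below every WT library. The chain that differed was not the same in the 2 sexes. In females mean Lamb1 was 6.36 TPM in WT and 4.91 TPM in Col6a2-/-, with Lamb2 at 23.7 and 24.4 TPM. In males mean Lamb1 was 4.69 and 4.94 TPM, with Lamb2 at 15.5 and 22.0 TPM. At 5 weeks the ratio was 1.16 times that of WT, which did not pass (exact permutation adjusted p = 0.244). Lamb1 made up 29.6% of β chain TPM in 5-week WT females and 40.4% in males, and 21.2% and 23.3% at 25 weeks. In Col6a2-/- mice these shares were 33.7% and 43.2%, then 17.1% and 18.5%.

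**Figure D3:**
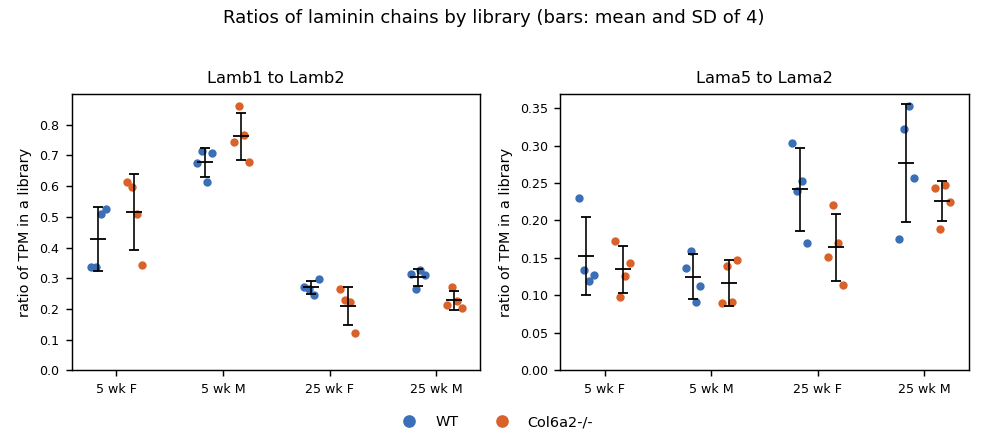
Ratio of TPM within each library (vertical axis, from 0) for Lamb1 to Lamb2 (left) and Lama5 to Lama2 (right), by age, sex and genotype; points are mice, bars are mean and SD of 4. The Lamb1 ratio is 0.335 to 0.859 at 5 weeks and 0.122 to 0.328 at 25 weeks, and the Lama5 ratio moves the other way.

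Lama2 fell with age and Lama5 did not pass the test in either genotype. The ratio of Lama5 to Lama2 within a library was 0.0905 to 0.23 in 5-week WT libraries and 0.17 to 0.352 at 25 weeks. It rose 1.87-fold with age in WT and 1.55-fold in Col6a2-/- (exact permutation adjusted p = 0.0109 and 0.0261). Its genotype difference at 25 weeks, 0.755 times that of WT, did not pass (exact permutation p = 0.0384, adjusted p = 0.128). The ratios of Lama4 to Lama2, Nid1 to Nid2 and Hspg2 to Agrn passed in none of the 4 comparisons, and their adjusted p ran from 0.154 to 0.917. On the TPM scale, Lama2 made up 45.0% to 51.0% of the α chains on average in the 8 groups and Lama4 41.4% to 45.6%. These shares do not hold on deposited coverage, described below, where Lama2 had the lowest mean of the α chains in each group. In 5-week WT females, for example, the means on coverage were 0.724 for Lama2, 4.66 for Lama4 and 1.5 for Lama5.

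At 5 weeks, males had more Lamb1 (0.62 ± 0.14, limma adjusted p = 0.0078), Nid1 (0.49 ± 0.12, adjusted p = 0.0163) and Lama4 (0.51 ± 0.13, adjusted p = 0.0199) than females, with genotypes weighted equally. Of all genes, 4.14% were called higher in males. That share rests on single libraries: 575 genes were called in either direction, but 281 without Col6a2-/- female replicate 4 and 3420 without female replicate 2. The 3 members were picked by their calls in these libraries, and genes with no overlap between the sexes were not counted over all genes. In WT mice the sexes did not overlap for these 3 genes, with for example 24.2 to 30.0 TPM of Nid1 in females and 36.9 to 47.2 in males. In Col6a2-/- mice they overlapped for all 3, with 25.4 to 61.0 TPM of Nid1 in females and 42.1 to 68.4 in males, 8.73 to 23.1 and 15.1 to 27.0 TPM of Lama4, and 7.66 to 21.1 and 14.9 to 26.0 TPM of Lamb1. The Lamb1 call held without each 5-week library in turn, that of Nid1 was lost without Col6a2-/- male replicate 1 (adjusted p = 0.0547), and that of Lama4 was lost without WT female replicate 2, WT male replicate 1, Col6a2-/- female replicate 4 or Col6a2-/- male replicate 1 or 3 (adjusted p up to 0.0658). At 25 weeks 0 members were called between sexes (limma, 2.41% of all genes called; 1 member, Lamb2, and 2011 genes at an unadjusted p under 0.05). The fall with age was called different between sexes for 1 member, Lamb1, which fell by 0.794 more on the log2 scale in males (limma adjusted p = 0.0234). Of all genes 3.43% were called, and with no filter on low genes Lamb1 had an adjusted p of 0.0595. At an unadjusted p under 0.05 there were 8 members and 3503 genes, so the difference is not particular to Lamb1. Its median was -0.467 for the members and -0.191 for all genes, and Lama4 had -0.61 (limma adjusted p = 0.0548). Between sexes at 5 weeks, Agrn, Lamc1 and Nid2 lay close to the threshold (limma adjusted p = 0.0721, 0.0696 and 0.0643). In that comparison 8 members and 2851 genes had an unadjusted p under 0.05.

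Ordered by mean, the groups of most members overlapped with the next group down. A gap between neighbouring groups occurred for Nid1 and Lamc1 below the 5-week WT males, and for Lamb1 below the 5-week WT females and again below the 25-week WT females. Such gaps were not counted over all genes. Over all 32 libraries, the 28 pairs among the 8 members other than Lama5 and Lamb2 had Pearson correlations of log2(TPM + 1) from 0.784 to 0.960. Pairs with Lamb2 had 0.582 to 0.733 and pairs with Lama5 0.221 to 0.5. These are descriptions of libraries that share age, genotype and sex. With the group means removed, the 28 pairs had a median of 0.607.

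The 3 tested genes whose pattern was most like that of Nid1 were Adamts2, Ppic and Bmp1, at correlations of 0.985, 0.975 and 0.974. For Lamb1 they were Col15a1, Mest and the collagen IV gene Col4a1, at 0.969, 0.965 and 0.964. Lamc1 was most like Nid1, at 0.960, and Lama2 most like Col6a3, at 0.948. For Lama5 and Lamb2 the best matches reached 0.717 (Shkbp1) and 0.896 (Pkd2).

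The genes that work with these 10 were read from lists, to be set against the 23.2% of all genes called higher in Col6a2-/- at 5 weeks and the 4.7% called in either direction at 25 weeks. Of 5 basement membrane collagens tested, 3 were higher in Col6a2-/- at 5 weeks and 0 at 25 weeks. Col4a2 went from 30.7 ± 9.57 to 42.2 ± 9.50 TPM (SD, n = 8, limma adjusted p = 0.00443), Col4a1 from 68.3 ± 25.7 to 93.5 ± 23.4 TPM (adjusted p = 0.00897), and Col18a1, the source of endostatin, from 4.24 ± 1.35 to 6.17 ± 2.16 TPM (adjusted p = 0.0253). All 5, Col4a5 and Col15a1 with them, fell with age in both genotypes, with changes of -0.74 to -1.56 in WT and -0.84 to -1.68 in Col6a2-/-. Of all genes, 15.3% in WT and 28.8% in Col6a2-/- were called lower with age.

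Of 16 other basement membrane proteins tested, 6 were higher at 5 weeks (37.5%) and 2 at 25 weeks (12.5%). Fbln2, a fibulin that binds laminin and nidogen, averaged 10.9 ± 0.652 TPM in WT libraries and 18.3 ± 3.13 TPM in knockout libraries at 5 weeks (limma adjusted p = 2.69e-05), with all 8 knockout libraries above all 8 WT libraries. At 25 weeks it was 12.0 ± 2.70 and 17.5 ± 2.48 TPM (adjusted p = 0.00436). Npnt, Pxdn and Papln were also called at 5 weeks, with changes of 0.41, 0.55 and 0.28, and Hmcn1 at 25 weeks, with 0.44.

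On the receptor side, 3 of 11 laminin and perlecan receptors were higher at 5 weeks and 0 at 25 weeks. That is 27.3%, near the 23.2% of all genes, so nothing is read from the count. Sdc3 and Sdc4 are transmembrane heparan sulfate proteoglycans, with changes of 0.66 and 0.52, and Itga7 is the laminin-binding integrin α chain of muscle fibres, with 0.37 (limma adjusted p = 0.0385). Of 4 genes of the agrin receptor complex, Musk and Lrp4 were higher at 5 weeks. Musk averaged 3.09 ± 0.842 TPM in WT libraries and 5.40 ± 1.10 TPM in knockout libraries at 5 weeks, and 4.52 ± 1.70 and 4.27 ± 1.36 TPM at 25 weeks (SD, n = 8). Its genotype change differed between the ages (-0.70 ± 0.15, limma adjusted p = 0.0218), since it rose with age in WT and fell in Col6a2-/-.

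Markers of other cell types were read in the same way. At 5 weeks, when 23.2% of all genes were called higher and 2.14% lower, 7 of 7 macrophage markers, 4 of 10 fibroblast, 5 of 10 endothelial, 2 of 8 mural and 2 of 4 satellite cell markers were higher in Col6a2-/-, and 4 of 9 myofibre markers were lower. The mural share, 25%, is near that of all genes. At 25 weeks 7 of 7 macrophage and 5 of 10 fibroblast markers were higher, and none of the other 4 lists had a call. Schwann cell, adipocyte, tenocyte and erythrocyte lists had 0 calls at either age. Summed macrophage markers were 33.5 to 56.6 TPM in 5-week WT libraries and 38.3 to 143 TPM in 5-week Col6a2-/- libraries, fibroblast markers 1110 to 2340 and 915 to 2850 TPM, and endothelial markers 88.6 to 148 and 98.4 to 169 TPM. No marker was at 0 in all libraries, and the part of these cells in the changes of the members was not tested.

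With age, when 15.3% of all genes were called lower in WT and 28.8% in Col6a2-/-, 5 of 10 fibroblast markers fell in WT and 4 in Col6a2-/-, where 1 rose. Summed fibroblast markers were 454 to 885 TPM in 25-week WT libraries, below every 5-week WT library. Endothelial markers fell for 2 of 10 genes in WT and 4 in Col6a2-/-, shares of 20% and 40%, and their sums overlapped between the ages. Other lists fell too: satellite cell markers for 3 of 4 and 4 of 4 genes, and Schwann cell markers for 2 of 5 and 5 of 5. Macrophage markers fell for 1 of 7 and 6 of 7. In each genotype 4 of 8 mural, 2 of 6 tenocyte and 3 of 9 myofibre markers fell, and 0 adipocyte or erythrocyte markers did. The part of these cells in the fall of the members was not tested either.

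The deposited coverage did not follow TPM equally for all members. Coverage was put on the TPM scale of its library through the coverage to FPKM ratio that most genes of that library share, so that a value of 1 means that both give the same level. Hspg2 had a median of 0.960 and Nid1 0.866, with a narrow range for Nid1 (0.847 to 0.874). Lamb1 had 0.538, Lama4 0.434 and Lama2 0.055 (0.045 to 0.057), so that the level of Lama2 beside other genes depends on which deposited column is read, by far more than its comparisons between groups do. GENCODE lists 8 transcript models for Lama2 and 7 for Lama4 and Lamb1, of which 5, 6 and 4 are non-coding. Lamb2 and Agrn also have 7 each, 3 of them non-coding, with medians of 0.78 and 0.716. Lama5 has 4, of which 3 are non-coding, with a median of 0.818. Whether the models bear on these values was not tested.

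For Lamc1 and Agrn the value varied between libraries, from 0.559 to 0.907 and from 0.421 to 0.907. It also varied for Lama5 (0.628 to 0.941), Nid2 (0.493 to 0.738) and Hspg2 (0.74 to 0.982). Lamc1 was 0.618 and 0.599 in Col6a2-/- female replicates 1 and 3 at 5 weeks and 0.861 and 0.888 in replicates 2 and 4, against 0.875 to 0.887 in WT females. On coverage, Lamc1 was 14.7 to 18.9 in 5-week WT females and 16.6 to 36.3 in Col6a2-/- females. The genotype call at 5 weeks over both sexes was kept for Lamc1 (0.38, limma adjusted p = 0.0209) and Agrn (0.39, adjusted p = 0.000276).

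**Figure D4:**
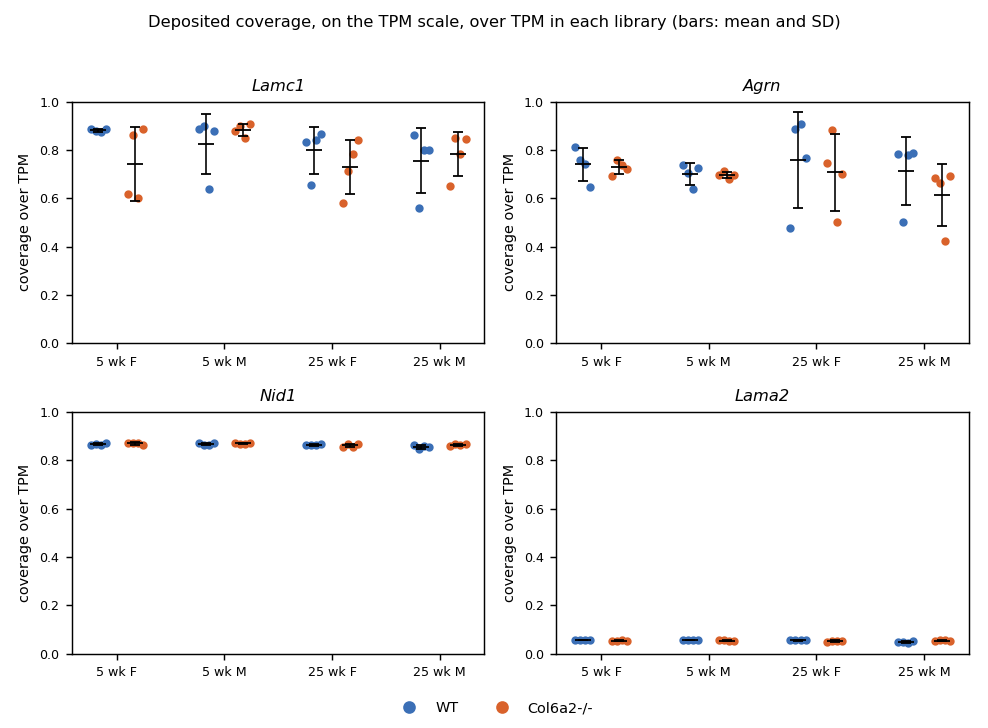
Deposited coverage on the TPM scale divided by TPM (vertical axis, from 0) in each library for Lamc1, Agrn, Nid1 and Lama2, by age, sex and genotype, with mean and SD of 4. Nid1 and Lama2 are flat at about 0.866 and 0.055, while single libraries of Lamc1 and Agrn drop to 0.559 and 0.421.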

How the data were processed

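Quadriceps RNA of 32 mice was sequenced with an Illumina TruSeq RNA kit and paired-end reads, per the labels' protocols. FastQC, MultiQC, Trimmomatic, HISAT2, SAMtools, StringTie and the build GRCm38 (mm10) are named, without versions, per the submitters' processing notes; the use of strand is not given in the sources used here. Each deposited table gives TPM, FPKM and coverage (a signal that is not scaled for depth) per gene, per the file headers; read counts were not used here, so no count test was run and the depth is known only as a ratio. TPM was summed per gene ID.

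One limma 3.58.1 model (R 4.3.3) with 8 group means was fitted to log2(TPM + 1) of the 12817 genes that reached 1 TPM in 4 or more libraries, with 13 contrasts; called means an adjusted p under 0.05. Fold changes on this scale understate low genes. Member ratios were compared by exact permutation within sex. Code was tested on simulated data. The labels give 1 mouse per library but no litter or day, so batches could not be examined. Members, lists and tests were chosen with earlier results of these data known. Named genes were all 10 members, the called genes of each list (at most 4 per list and age, by p) and the 3 most correlated genes of each member; some genes and lists under this rule are not reported here.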

Additional observations from a re-analysis of the deposited data

Results flagged for a closer look

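Single libraries stood far from the other 3 of their group in 2 of the 80 member-by-group sets, and chance alone gives about 1 in 20 such sets. Lama5 was 2.46 TPM in WT female replicate 1 at 5 weeks, against 1.68 to 1.79 TPM in the other 3. On deposited coverage that library had 1.55, within the 1.32 to 1.57 of the others. Agrn was 2.12 TPM in WT female replicate 1 at 25 weeks, against 0.952 to 1.06 TPM. On coverage it had 1.01, against 0.815 to 0.902 in the others. Coverage over TPM was 0.628 for Lama5 and 0.476 for Agrn in these libraries.

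Lamb1 fell more with age in males than in females, by an interaction of -0.794 (limma adjusted p = 0.0234). In WT it went from 9.86 ± 2.27 to 6.36 ± 0.406 TPM in females and from 16.3 ± 1.61 to 4.69 ± 0.718 TPM in males (SD, n = 4). In Col6a2-/- it went from 14.5 ± 5.63 to 4.91 ± 0.937 and from 20.8 ± 4.77 to 4.94 ± 0.406 TPM. The interaction was called in each of the 32 fits that left out 1 library. Lamb1 was the 1 member called, but 8 members and 3503 genes had an unadjusted limma p under 0.05 for it.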

How the results depend on the processing

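The 9 alternatives were run for each comparison, along with 32 fits that each left out 1 library; coverage in place of TPM was chosen after seeing the data. No called change of a member turned its direction. The falls with age of 8 members in both genotypes kept their side of the threshold in all of them. The number of members called at 5 weeks between genotypes was 5, but 3 with no filter and 2 with median-of-ratios or quantile scaling. In 5-week females it was 3, but 1 with no filter or after rescaling without mitochondrial and Rn7s genes, and 5 with library quality weights. At 25 weeks it was 0, and 3 with weights. In 25-week males it was 0, but 1 with a pseudocount of 0.1 or median-of-ratios, and 3 with weights. Between sexes at 5 weeks it was 3, but 6 after rescaling, with weights or on coverage. Between sexes at 25 weeks it was 0, but 1 (Lamb2) with median-of-ratios, quantile scaling or weights. For age by sex it was 1, but 0 with no filter, 2 with a pseudocount of 0.1 or a filter of 5 TPM, and 5 with weights.

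Leaving out 1 library gave 2 to 7 members for genotype at 5 weeks, 0 to 5 in 5-week females, 0 to 1 at 25 weeks, 0 to 2 in 25-week males, 0 to 1 for genotype by age, 1 to 7 and 0 to 1 for sex at 5 and 25 weeks, and 1 to 5 for age by sex. For genotype at 5 weeks the count over all genes ran from 2207 to 4749 in these fits. The log2 ratio of Lama5 to Lama2 with age in Col6a2-/- was then 0.553 to 0.713 and called in 27 of 32 fits; its genotype difference at 25 weeks was -0.507 to -0.325 and that of Hspg2 to Agrn at 5 weeks -0.382 to -0.200, each called in 1 fit.

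Whether replicate numbers pair the mice, for example by a shared batch, was not settled. Libraries with the same number had a median correlation of deviations of 0.032, and other pairs -0.013. A correlation over 0.1 was held by 35 of 112 same-number pairs and by 65 of 336 other pairs. Of 32 libraries, 14 correlated best with their own number. With the replicate block, Lamb2 with age in WT was the one call of a member lost. The block turned the ratio tests into sign flips of 8 pairs, a coarser test, and the 5 ratio calls did not pass under it. The log2 differences of Lamb1 to Lamb2 (-0.895 and -1.533 with age, -0.420 for genotype at 25 weeks) and of Lama5 to Lama2 with age (0.905 and 0.632) were unchanged by it, with adjusted p of 0.0521, 0.0521, 0.117, 0.0521 and 0.156.

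Counts over all genes moved by more than 1.5 times with the filter of 5 TPM (genotype at 5 weeks, 3253 to 1553; age in Col6a2-/-, 4389 to 2263) and with other settings for age in WT (2536; 1441 and 4166), sex at 5 weeks (575; 332 and 2317), sex at 25 weeks (309; 194 to 1543), age by sex (440; 206 to 3803), genotype at 25 weeks (603; 343 to 1967), by age (63; 32 to 241), by sex (2; 0 and 5), in 5-week females (1648; 722 to 2879) and males (645; 295 to 1424), and in 25-week females (1; 2 to 33) and males (388; 133 to 2437). Leaving out 1 library moved them further for genotype in 25-week males (55 without Col6a2-/- male replicate 1 to 816 without 5-week Col6a2-/- female replicate 2), in 5-week males (313 to 1003, Col6a2-/- male replicates 1 and 4) and females (455 to 3865, Col6a2-/- female replicates 2 and 4), at 25 weeks (270 to 983) and by age (up to 229, without 5-week Col6a2-/- female replicate 4), for sex at 5 weeks (281 to 3420) and for age by sex (176 to 3821, without 5-week Col6a2-/- male replicate 1 and female replicate 2). The shares of all genes set beside the members move with them. Depth is known only as a ratio, so no counting error is given, and Agrn and Lama5, at a few TPM, are the least precise.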

Other observations

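The summed TPM of the 10 genes was 124 ± 14.4 in 5-week WT females and 178 ± 14.3 in 5-week WT males (SD, n = 4), and 92.6 ± 5.57 and 74.8 ± 8.61 at 25 weeks. In Col6a2-/- mice it was 180 ± 56.0 and 221 ± 57.1, then 99.3 ± 14.6 and 103 ± 12.8. The SD of the 5-week knockout groups was thus larger than that of the WT groups, a difference that was not tested. α chain TPM per unit of Lamc1 was 1.07 to 1.33 on average in the 5-week groups and 1.41 to 1.55 in the 25-week groups, and these values were not tested.

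Musk, the receptor kinase that agrin activates through Lrp4, was higher in males than in females at 25 weeks (0.62 ± 0.11, limma adjusted p = 0.000441), with 3.06 ± 0.434 TPM in WT females and 5.98 ± 0.942 TPM in WT males (SD, n = 4). Agrn at that age did not pass (0.018, limma adjusted p = 0.954).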
